A study of Rattus norvegicus with 6 samples.

Results

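The genes described here were 34 genes of the metal, oxidative stress and hypoxia response, listed by name. They comprised 4 genes of metal handling, 9 genes switched on by the transcription factor NRF2, 2 ferritin subunits, 11 genes of the hypoxia response and 8 genes of glucose use that the hypoxia response also controls. Of the 34, 31 had a probe set that the array annotation assigns to 1 gene symbol, out of 14217 such genes and 31042 probe sets in all. The 3 left out were Mt1a, whose symbol the annotation does not use, and the ferritin subunits Ftl1 and Fth1, which it names only on probe sets shared by several symbols.

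The study asked how astrocyte-secreted proteins act on retinal ganglion cells (RGCs), the output neurons of the retina. RGCs were purified by immunopanning, in which antibody-coated dishes hold the wanted cells, from rat pups of postnatal day 6 and were grown without glia for 12 days before treatment. One group of cultures received no protein (Alone), one received glypican 4 (Gpc4) and one received thrombospondin 1 (TSP1), in each case for 12 h. Gpc4 is a heparan sulfate proteoglycan and TSP1 is a large matrix glycoprotein, and both are released by astrocytes and act on synapse formation. Each group had 2 Affymetrix rat expression arrays, on which several short probes make up the probe set of a transcript, and according to the methods they came from 2 separate cultures, with 2 wells pooled for each array. The Gpc4 carried a histidine tag, was made in HEK293 cells (a human embryonic kidney line), was captured on nickel beads and was eluted with imidazole before the buffer was exchanged. The TSP1 was a purchased recombinant protein for which the methods describe no nickel step. For the Alone arrays the labels give no treatment. All groups shared a serum-free medium that holds BDNF, CNTF and forskolin, together with insulin, transferrin, selenite and the antioxidant N-acetyl cysteine, and all were kept in 10% CO2.

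These genes belong to stress programs that run side by side in most cells. Metallothioneins are small cysteine-rich proteins that bind zinc, copper and cadmium, and the zinc-sensing factor MTF1 switches on their genes when free metal rises. NRF2 is held low by its partner KEAP1 until oxidants or electrophiles modify KEAP1, after which NRF2 enters the nucleus and raises genes for glutathione synthesis, thioredoxin recycling and quinone detoxification. In the hypoxia response, prolyl hydroxylases use oxygen to mark the HIF factors for destruction, so that low oxygen, or a metal that displaces iron from these enzymes, lets HIF accumulate and raise genes for glucose uptake, glycolysis and blood vessel growth. Nickel and cobalt salts are known to act on the hypoxia program in this way, and cadmium and zinc are known to act on the metallothioneins.

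The deposited values were log2 signals, with array medians of 5.96 to 5.99. A value below the array's median was read here as not shown to lie above background, because no detection call was used. On that reading the zinc exporter Slc30a1, the NRF2 target Osgin1, the prolyl hydroxylase Egln3, the carbonic anhydrase Car9 and the hexokinase Hk2 lay below the median on all 6 arrays, and the peptide hormone gene Adm did so on 3 of the 6. The other 25 measured members lay above the median on every array. Of 14 markers of RGCs, 12 were measured and all 12 were above the median on every array. Markers of other cell types had a mean log2 value per array of 6.53 to 6.77 for 13 of astrocytes and Müller glia, 4.99 to 5.72 for 10 of microglia and 6.78 to 7.88 for 9 of fibroblasts. The fibroblast list shares Thy1 with the RGC list, so the level of its mean is not of fibroblasts alone. Against Alone, the means of these 3 lists overlapped between the groups with either protein. Other lists did not overlap: 7 endothelial markers had a mean of 4.82 and 4.83 with Gpc4, 4.63 and 4.59 with TSP1 and 4.67 on both Alone arrays, 6 amacrine and photoreceptor markers 6.94 and 6.98 with Gpc4 and 7.07 on both Alone arrays, and 9 oligodendrocyte lineage markers 5.60 and 5.54 with TSP1 and 5.73 on both Alone arrays. In the endothelial list the largest difference with Gpc4 was 0.83, beside a median of 0.075, with 5 markers above 0 and 2 below. In the oligodendrocyte lineage list the lowest with TSP1 was -1.35, beside a median of -0.065, with 3 above 0 and 6 below. The RGC markers had a mean of 11.99 on both Gpc4 arrays and of 12.05 and 12.00 Alone. Between Gpc4 and TSP1, the means of 5 of the 7 lists did not overlap. They were higher with Gpc4 for the astrocyte and Müller glia list (6.641 and 6.77 beside 6.528 and 6.635), the oligodendrocyte lineage list and the endothelial list, and lower for the RGC list and the amacrine and photoreceptor list. The oligodendrocyte lineage list had a median difference of 0.07 and a largest of 1.355, with 7 markers above 0 and 2 below. The endothelial list had a median of 0.065 and a largest of 1.13, with 5 above 0 and 2 below. A single gene thus carried much of the mean in each. Only 2 of the 9 and 1 of the 7 markers lay above the array median on all arrays. No marker was called by limma in these comparisons, but with the culture number as a term of the model some were. Between Gpc4 and TSP1 these were the fibroblast matrix genes Dcn (1.77, adjusted p = 0.026) and Lum (1.95, adjusted p = 0.0086), higher with Gpc4 and below the array median on both TSP1 arrays, Postn (-0.87, adjusted p = 0.013), lower with Gpc4, and the endothelial receptor gene Kdr (1.13, adjusted p = 0.017), higher with Gpc4. Between TSP1 and Alone it was Postn (0.99, adjusted p = 0.04), higher with TSP1. The part of these cells in the differences given below was not tested. Arrays measure whole cultures, so fewer cells of one type and less RNA per cell cannot be told apart.

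Promoter sequence was read for the measured members from RefSeq on the GRCr8 rat build, as a window of 300 bases that starts 250 bases before the annotated start. A window was found for 28 of the 31 measured members, with 31 windows in all because Aldoa and Txnrd1 have more than 1 annotated start. Hmox1, Ndrg1 and Pgk1 had none. The metal response core (TGCGCNC or TGCACNC), the antioxidant response core (TGACNNNGC) and the hypoxia response core (ACGTG or GCGTG) were searched on both strands. The metal and hypoxia cores can overlap one another, and so can neighbouring hypoxia cores. The metal core was present in 3 of 3 windows of the metal group and in 24.2% of all 33469 promoters. The antioxidant core was present in 2 of 9 windows of the NRF2 group, or 22.2%, and in 12.1% of all promoters. The hypoxia core was present in 8 of 10 windows of the hypoxia group and in 41.6% of all promoters, so it was common everywhere. The cores were not confined to the group named for them. The hypoxia core was in 3 of 3 metal windows, 5 of 9 NRF2 windows and 5 of 9 glucose use windows. The antioxidant core was in 2 of 3 metal, 1 of 10 hypoxia and 2 of 9 glucose use windows. The metal core was in 2 of 9 NRF2, 4 of 10 hypoxia and 3 of 9 glucose use windows. A match says only that these letters are in the window.

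The promoters of Mt2A, Ankrd37 and Pdk1 are shown because Mt2A is the metallothionein described in most detail below, and Ankrd37 and Pdk1 are the HIF-controlled members with the 2 highest differences among those whose Gpc4 values lay above both Alone values. The Mt2A window (chr19:10838659-10838958, minus strand) held 4 metal cores, shown in capitals, the Ankrd37 window (chr16:53001257-53001556, plus strand) held 5 hypoxia cores, of which 2 overlap and read as 1 run, and the Pdk1 window (chr3:77113264-77113563, plus strand) held 4 hypoxia cores, also in capitals. The Mt2A window also held 6 hypoxia cores and 1 antioxidant core, which are not marked, so hypoxia cores do not set the other 2 windows apart from it.
Mt2A: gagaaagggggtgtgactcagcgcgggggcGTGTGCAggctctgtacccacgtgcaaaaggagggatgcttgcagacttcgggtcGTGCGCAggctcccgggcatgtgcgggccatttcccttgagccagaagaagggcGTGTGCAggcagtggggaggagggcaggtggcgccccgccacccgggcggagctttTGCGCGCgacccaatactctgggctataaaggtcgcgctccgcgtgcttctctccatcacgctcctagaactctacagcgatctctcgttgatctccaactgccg
Ankrd37: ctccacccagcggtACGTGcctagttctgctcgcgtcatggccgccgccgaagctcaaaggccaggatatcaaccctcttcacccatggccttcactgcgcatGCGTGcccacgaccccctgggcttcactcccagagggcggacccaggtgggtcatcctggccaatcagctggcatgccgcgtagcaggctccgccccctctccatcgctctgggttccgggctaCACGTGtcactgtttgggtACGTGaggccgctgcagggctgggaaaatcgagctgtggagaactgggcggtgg
Pdk1: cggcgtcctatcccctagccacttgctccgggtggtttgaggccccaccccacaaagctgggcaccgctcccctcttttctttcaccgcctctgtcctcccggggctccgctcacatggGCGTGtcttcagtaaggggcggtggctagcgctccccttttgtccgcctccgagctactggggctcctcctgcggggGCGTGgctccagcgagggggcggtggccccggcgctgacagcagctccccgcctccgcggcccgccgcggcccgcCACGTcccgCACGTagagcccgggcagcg
The promoter of Slc7a11, the member with the largest difference with Gpc4 below, held none of the cores searched in its window (chr2:136668215-136668514).

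No member passed the test in any comparison between conditions. With Gpc4 against Alone, 0 of the 31 measured members were called by limma at an adjusted p under 0.05, against 0.0838% of all probe sets (26 of 31042). With TSP1 against Alone, 0 members were called, against 0.0% of all probe sets. With Gpc4 against TSP1, 0 members were called, against 0.0612% of all probe sets. With so few calls over the whole array, a count of 0 among 31 genes is near the background and says nothing particular about these genes. With the replicate block, in which the culture number is a term of the model, 0 members were called in each of these comparisons, beside 0.206%, 0.0129% and 0.258% of all probe sets in the same order. The lowest adjusted p without it among the members was 0.48 for Gpc4 against Alone, 0.98 for TSP1 against Alone and 0.63 for Gpc4 against TSP1.

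The intervals bound how large a difference could have gone unseen. For Gpc4 against Alone, the 95% interval of every measured member lay within 2-fold in either direction, and for 26 of the 31 it lay within 1.5-fold. The exceptions to the narrower range were Nqo1, Gclm, Slc7a11, Adm and Ndrg1. These intervals leave the culture number out of the model, so differences between the cultures widen them. With the replicate block, the log2 intervals with Gpc4 were -0.01 to 0.48 for Nqo1 and -0.15 to 0.59 for Gclm. They were -0.75 to -0.28 for Slc7a11, -0.51 to 0.18 for Adm and -0.46 to -0.02 for Ndrg1. For TSP1 against Alone, 30 of the 31 intervals lay within 2-fold, the exception being Adm, and 27 within 1.5-fold. For Gpc4 against TSP1, 30 lay within 2-fold, the exception being Nqo1, and 25 within 1.5-fold. For the members below the array median, such an interval is of a signal not shown to be above background.

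**Figure D1:**
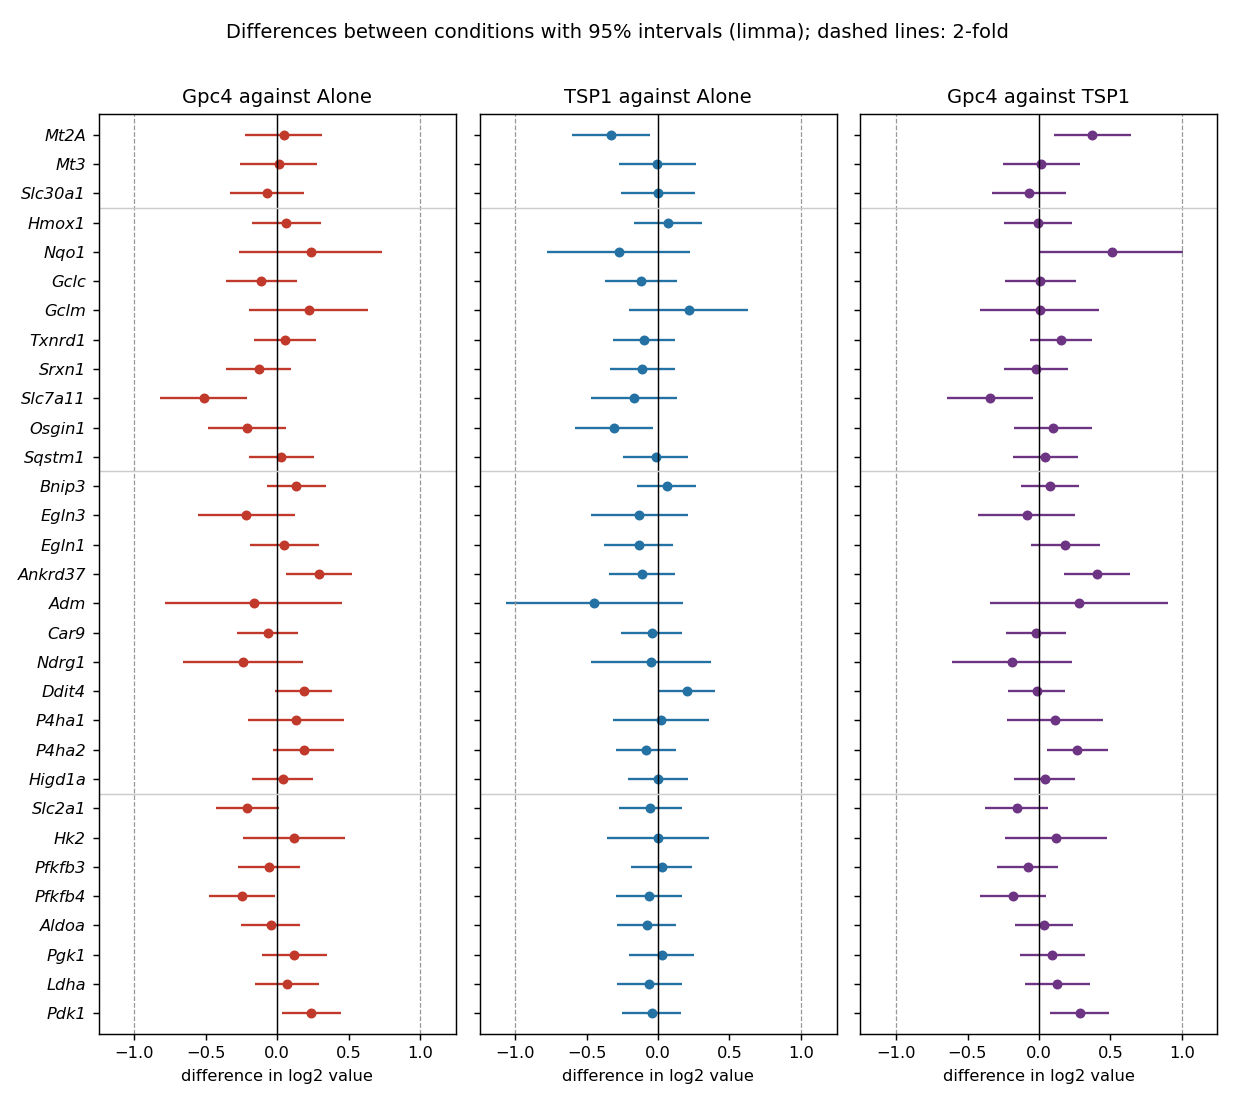
Difference in log2 value for each of the 31 measured members (rows, grouped from top to bottom as metal, NRF2, hypoxia and glucose use) in the 3 comparisons; points are limma estimates from 2 arrays a group, bars are 95% intervals and dashed lines mark 2-fold. Gpc4 differences run from -0.52 for Slc7a11 to 0.30 for Ankrd37, and no member passed the adjusted test.

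Without the adjustment, a larger share of the members than of the whole array had a limma p under 0.05. The share was 4 of 31 members, or 12.9%, for Gpc4 against Alone, where 6.88% of all probe sets did so. It was 3 members, or 9.68%, for TSP1 against Alone, where the background was 4.4%, and 6 members, or 19.4%, for Gpc4 against TSP1, where it was 4.51%. These are counts of 3 to 6 genes and no test of the list was made. The members were chosen with earlier results of these data known, so a larger share may come from that choice. The median difference over the members was 0.04 for Gpc4 against Alone, -0.055 for TSP1 against Alone and 0.04 for Gpc4 against TSP1, beside -0.005 over all probe sets in each. With Gpc4, 18 members were above 0 and 13 below, and with TSP1, 7 were above 0, 21 below and 3 at 0. Both sets of differences use the same Alone arrays.

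The groups did not overlap, in the sense that both arrays of one lay beyond both of the other, for 5 members that were higher with Gpc4 than Alone (Bnip3, Ankrd37, Ddit4, P4ha2 and Pdk1). That is 16.1% of the members beside 16.0% of all probe sets. It held for 5 that were lower (Srxn1, Slc7a11, Osgin1, Slc2a1 and Pfkfb4), beside a background of 18.9%. With TSP1, 2 members were higher (Bnip3 and Ddit4; background 14.3%) and 6 were lower (Mt2A, Txnrd1, Osgin1, Egln1, Ankrd37 and Aldoa; background 15.6%). Between the proteins, 9 members were higher with Gpc4 than with TSP1, which is 29.0% of the members beside 14.6% of all probe sets. They were Mt2A, Nqo1, Txnrd1, Bnip3, Egln1, Ankrd37, P4ha2, Hk2 and Pdk1. The marker means of astrocytes and Müller glia, of the oligodendrocyte lineage and of endothelium were also higher with Gpc4 than with TSP1 without overlap. In the oligodendrocyte lineage and endothelial lists a single gene carried much of the mean. The part of these cells in this count was not tested. In the other direction 4 members were lower with Gpc4 (Slc30a1, Slc7a11, Slc2a1 and Pfkfb4; background 15.5%). Each count rests on a single probe set a gene. With Gpc4 against Alone, the dimmer probe sets of P4ha2, Pdk1, Srxn1 and Pfkfb4 overlapped. With TSP1 against Alone, those of Txnrd1 and Egln1 did. Between the proteins, those of Egln1, P4ha2 and Pdk1 were also higher with Gpc4, while those of Txnrd1 and Pfkfb4 overlapped. For Gclc, only the dimmer probe set was lower than Alone, with both proteins. The background holds all probe sets, including dim ones and those without a symbol, while most members lay above the array median. Of the members counted here, Osgin1, Slc30a1 and Hk2 lay below the median on all 6 arrays. With Gpc4 or TSP1 against Alone the counts were near or below the background. As the members were chosen with earlier results of these data known, the larger share between the proteins is no test of the list.

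The metallothioneins were read first, the Gpc4 having been purified on nickel beads. Their genes answer to free metal through MTF1, and the metals named above for them are cadmium and zinc. Their transcripts are therefore no direct measure of nickel. Mt2A had log2 values of 8.10 and 8.36 on the Alone arrays, 8.18 and 8.37 with Gpc4 and 7.90 and 7.90 with TSP1, culture 1 first. The Gpc4 and Alone arrays overlapped and both TSP1 arrays were lower than all others. The difference from Alone was 0.05 ± 0.12 (SE) with Gpc4, with a 95% interval of -0.23 to 0.32 (adjusted p = 0.97), and -0.33 ± 0.12 with TSP1, with an interval of -0.60 to -0.06 (adjusted p = 0.98). Gpc4 lay above TSP1 by 0.38 ± 0.12 (adjusted p = 0.91), an interval of 0.10 to 0.65. None of these passed the adjusted test.

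Mt3, the metallothionein of neurons, read 8.45 and 8.16 Alone, 8.38 and 8.25 with Gpc4 and 8.28 and 8.32 with TSP1. Its groups overlapped, and the Gpc4 difference from Alone was 0.01, with an interval of -0.26 to 0.28. The zinc exporter Slc30a1, below the median on all arrays, read 3.54 and 3.25 Alone, 3.32 and 3.33 with Gpc4 and 3.39 and 3.40 with TSP1. The probe set of Mt1, of which RefSeq lists Mt1a as an older name, read 4.37 and 4.21 Alone, 4.01 and 4.37 with Gpc4 and 4.20 and 4.44 with TSP1, all below the median. Its Gpc4 difference was -0.10, with an interval of -0.44 to 0.24, and as it is not a measured member it is counted nowhere above.

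**Figure D2:**
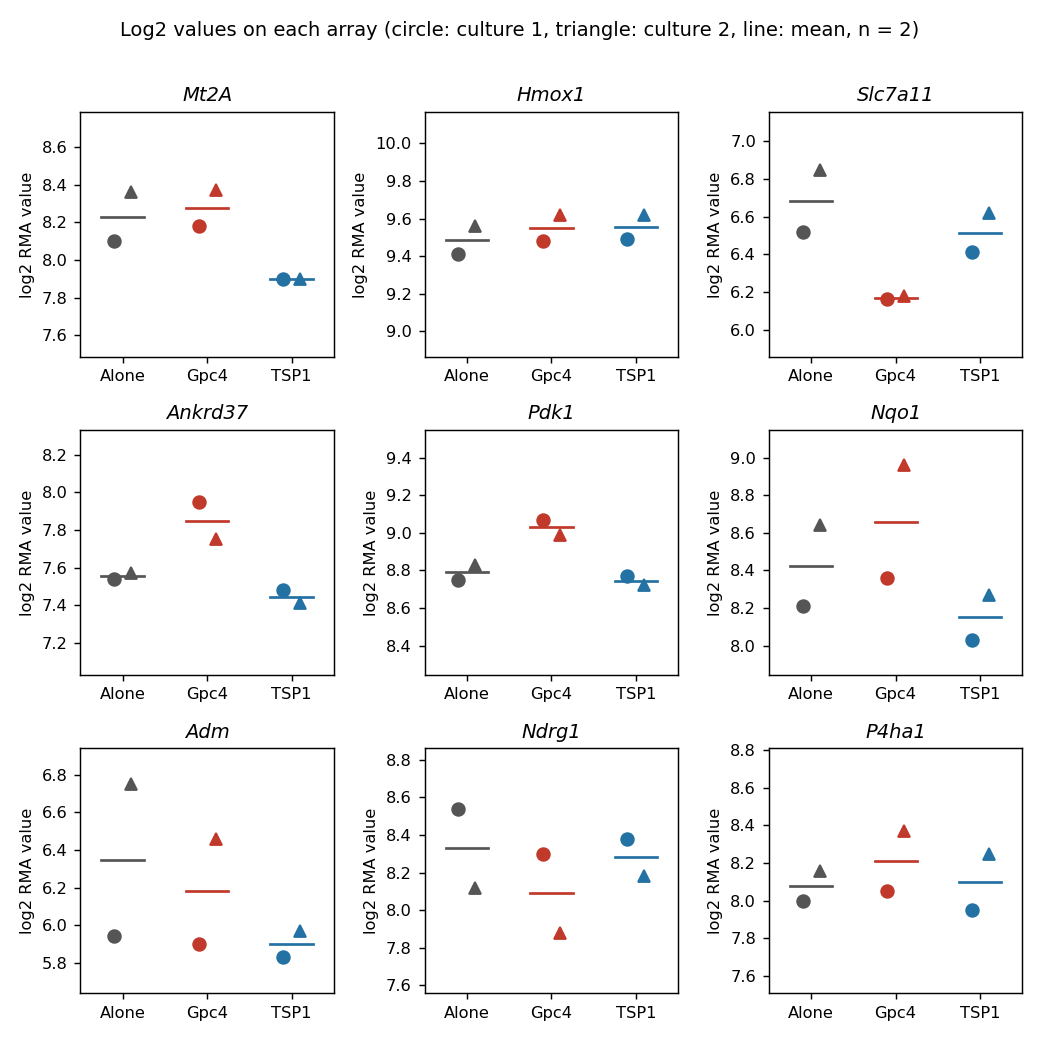
Log2 value of 9 members on each of the 6 arrays (circles are culture 1, triangles culture 2, lines the mean of the 2 arrays of a group), with the same span of log2 units in every panel. TSP1 arrays of Mt2A sit at 7.90, both below the other 4, while Hmox1 arrays of the 3 groups overlap.

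Hmox1, the heme oxygenase that rises many-fold in cells under oxidative or metal stress, read 9.41 and 9.56 Alone, 9.48 and 9.62 with Gpc4 and 9.49 and 9.62 with TSP1. The 3 groups overlapped. The Gpc4 difference was 0.07 (95% interval -0.18 to 0.31), and the upper end of the interval lay below 1.5-fold. Whether the cells were under oxidative or metal stress was not tested. Nqo1, the quinone reductase, read 8.21 and 8.64 Alone, 8.36 and 8.96 with Gpc4 and 8.03 and 8.27 with TSP1. Gpc4 exceeded Alone by 0.24 (interval -0.27 to 0.74), overlapping it, and exceeded TSP1 by 0.51 (0.01 to 1.01), whose arrays it did not overlap. TSP1 differed from Alone by -0.275 (interval -0.775 to 0.225). Within cultures 1 and 2, Gpc4 differed from Alone by 0.15 and 0.32, and TSP1 by -0.18 and -0.37. With the replicate block, the interval between the proteins was 0.26 to 0.76 (adjusted p = 0.22 by limma). None of these differences passed the adjusted test, with or without the block.

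Slc7a11, the cystine importer that feeds glutathione synthesis, had the largest difference of any measured member with Gpc4. It read 6.52 and 6.85 Alone, 6.16 and 6.18 with Gpc4 and 6.41 and 6.62 with TSP1. The Gpc4 arrays were the lowest of the 6, and the difference from Alone was -0.52 ± 0.13 (SE), with an interval of -0.82 to -0.21, or 1.43-fold lower. The adjusted p was 0.48, so it did not pass. The value was lower in both cultures, by -0.36 and -0.67. The other antioxidant members had smaller differences: Gclc and Gclm, the subunits of the enzyme that limits glutathione synthesis, differed by -0.11 and 0.22 with Gpc4, and the thioredoxin reductase Txnrd1 and the sulfiredoxin Srxn1 by 0.06 and -0.13. The autophagy receptor Sqstm1 differed by 0.03 with Gpc4. Osgin1, below the median on all arrays, read 5.04 and 4.88 Alone, 4.78 and 4.72 with Gpc4 and 4.79 and 4.51 with TSP1, and differed by -0.31 (interval -0.58 to -0.04) with TSP1.

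Among the hypoxia genes, Ankrd37, an ankyrin repeat gene known as a HIF target, read 7.54 and 7.57 Alone, 7.95 and 7.75 with Gpc4 and 7.48 and 7.41 with TSP1. Both Gpc4 arrays lay above all the others. Gpc4 exceeded Alone by 0.30 ± 0.10 (interval 0.07 to 0.53, adjusted p = 0.65) and TSP1 by 0.41 ± 0.10 (interval 0.18 to 0.64, adjusted p = 0.63), the latter being the lowest adjusted p among members in that comparison. Ddit4, which restrains mTOR signalling under stress, read 9.01 and 9.09 Alone, 9.22 and 9.25 with Gpc4 and 9.23 and 9.27 with TSP1. Both proteins gave values above both Alone arrays, by 0.19 with Gpc4 and 0.20 (interval 0.00 to 0.40) with TSP1. P4ha2, a collagen prolyl hydroxylase, read 8.27 and 8.18 Alone, 8.41 and 8.41 with Gpc4 and 8.08 and 8.20 with TSP1. None of these passed the adjusted test.

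The remaining hypoxia members lay on both sides of 0 with Gpc4. The mitophagy receptor Bnip3 differed by 0.14 with Gpc4 and by 0.06 with TSP1, and the mitochondrial protein Higd1a by 0.04 with Gpc4. The HIF prolyl hydroxylase Egln1 differed by 0.05 with Gpc4 and its relative Egln3, below the median, by -0.22. Adm read 5.94 and 6.75 Alone, 5.90 and 6.46 with Gpc4 and 5.83 and 5.97 with TSP1. It differed from Alone by -0.165 with Gpc4 and by -0.445 with TSP1, the lowest value of any measured member with TSP1. The interval with TSP1 ran from -1.07 to 0.18, and from -0.79 to -0.10 with the replicate block (adjusted p = 0.70 by limma). Car9, below the median on all arrays, differed by -0.07 with Gpc4, Ndrg1, a stress-response gene, by -0.24 and the collagen hydroxylase P4ha1 by 0.13.

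Pdk1, the kinase that turns pyruvate away from the mitochondrion, read 8.75 and 8.83 Alone, 9.07 and 8.99 with Gpc4 and 8.77 and 8.72 with TSP1. Both Gpc4 arrays were above all the others, by 0.24 ± 0.09 over Alone (interval 0.04 to 0.45, adjusted p = 0.69) and 0.29 over TSP1 (adjusted p = 0.90). A second, dimmer probe set of the gene differed by 0.05 with Gpc4 and by -0.17 with TSP1, so the higher Gpc4 value over Alone rests on the brighter one. Pfkfb4, a regulator of glycolysis, read 7.66 and 7.55 Alone, 7.45 and 7.27 with Gpc4 and 7.51 and 7.57 with TSP1, lower with Gpc4 by -0.25 (interval -0.48 to -0.01, adjusted p = 0.72). Its second probe set differed by -0.01.

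The glucose transporter Slc2a1 read 9.47 and 9.45 Alone, 9.33 and 9.17 with Gpc4 and 9.36 and 9.45 with TSP1, lower on both Gpc4 arrays than on any Alone array. The glycolytic enzymes Aldoa, Pgk1 and Ldha differed by -0.05, 0.12 and 0.07 with Gpc4. The kinase Pfkfb3 differed by -0.06 and the hexokinase Hk2, below the median on all arrays, by 0.12. No enzyme of glucose use passed the test, and the 8 members of this group had a median difference of 0.01 with Gpc4 and -0.05 with TSP1.

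The same members were then compared between the 2 cultures within each condition, replicate 2 against replicate 1. No member was called by limma, against 0.561% of all probe sets, and 4 members, or 12.9%, had an unadjusted p under 0.05, beside a background of 11.3%. Nqo1 differed by 0.42 ± 0.09 (SE), with an interval of 0.22 to 0.63 and an adjusted p of 0.13. It was higher in culture 2 by 0.43 Alone, 0.60 with Gpc4 and 0.24 with TSP1. Ndrg1 was lower in culture 2 by -0.42 Alone, -0.42 with Gpc4 and -0.20 with TSP1 (adjusted p = 0.17), and its second probe set differed by -0.28. Adm was higher by 0.81, 0.56 and 0.14 (adjusted p = 0.20) and P4ha1 by 0.16, 0.32 and 0.30 (adjusted p = 0.26).

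Culture 2 was higher in all 3 conditions for 9 members, or 29.0%, where 13.9% of all probe sets were. They were Hmox1, Nqo1, Gclc, Slc7a11, Bnip3, Adm, Ddit4, P4ha1 and Higd1a. It was lower in all 3 conditions for 6, or 19.4%, beside 17.5% of all probe sets: Srxn1, Osgin1, Egln1, Ndrg1, Pfkfb3 and Aldoa. These are shares of a list chosen with earlier results of these data known. Markers of other cell types also differed between the cultures. The mean of 10 microglial markers was lower in culture 2 by -0.65, -0.31 and -0.59 in the 3 conditions, with Tyrobp (-0.95), C1qa (-0.99) and C1qb (-1.09) called, and the mean of 9 fibroblast markers was higher by 0.93, 0.48 and 0.74, with Dcn (1.54), Lum (1.79) and Postn (0.71) called. Of the glial markers Gja1 (1.12) and Vim (0.80) were called higher in culture 2, as was the amacrine marker Gad1 (0.61). The mean of the 12 RGC markers differed by -0.04, 0.01 and -0.03. The part of these cells in the differences of the stress genes was not tested.

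**Figure D3:**
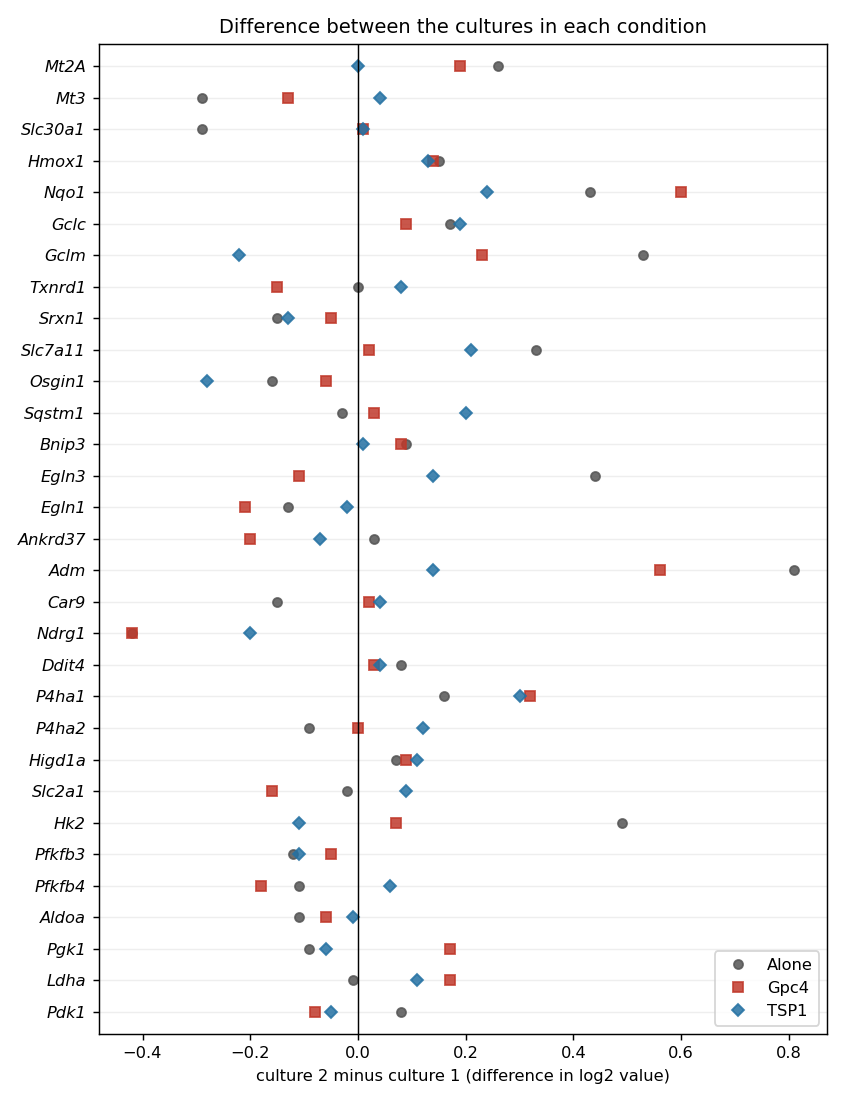
Difference in log2 value, culture 2 minus culture 1, for each of the 31 measured members in the Alone, Gpc4 and TSP1 groups, 1 array of each culture per point. Nqo1, P4ha1 and Adm lie right of 0 and Ndrg1 left of 0 in all 3 groups, and the Alone and Gpc4 points of Ndrg1 coincide.

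The regulators of these programs were looked at as well. Mtf1, the metal sensor, read 7.56 and 7.46 Alone, 7.52 and 7.53 with Gpc4 and 7.71 and 7.62 with TSP1, and differed by 0.02 and 0.16 from Alone. Nfe2l2, which encodes NRF2, differed by -0.13 with Gpc4 and -0.07 with TSP1, and its inhibitor Keap1 by -0.11 and 0.03. Hif1a, the oxygen-regulated HIF subunit, read 11.53 and 11.76 Alone, 11.94 and 11.94 with Gpc4 and 11.92 and 11.81 with TSP1, above Alone by 0.30 ± 0.11 (adjusted p = 0.68) and 0.22. Oxygen is known to act on the HIF-1α protein, through the hydroxylases, rather than on this transcript. Vhl, which targets HIF for degradation, differed by -0.16 with Gpc4 and Vegfa, a HIF target, by 0.12.

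Bach1, a repressor of NRF2 targets, and Arnt, the partner of the HIF subunits, lay below the array median, and Hif1an was not measured. Epas1, the second HIF subunit, read 6.38 and 7.31 Alone, 6.81 and 7.59 with Gpc4 and 6.29 and 7.35 with TSP1. It was the only regulator called in any comparison, between the cultures, where it was higher in culture 2 by 0.92 ± 0.08 (SE; adjusted p = 0.0036 by limma), beside the marker differences given above, whose part was not tested.

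Wider lists of genes with related functions, none of them members, were read beside the members. The arrays measured 24 of 25 metal regulators and transporters, 39 of 41 NRF2 regulators and antioxidant genes, 28 of 30 HIF regulators and hypoxia targets and 25 of 27 glycolysis and lactate genes. None of these genes was called by limma with Gpc4, with TSP1 or between the proteins. The median differences with Gpc4 were -0.002, -0.03, 0.03 and -0.01 in that order, and with TSP1 -0.01, -0.05, -0.02 and -0.05, beside -0.005 over all probe sets. In the same order of lists, 1, 1, 4 and 0 genes had an unadjusted p under 0.05 with Gpc4, which is 4.17%, 2.56%, 14.3% and 0.0% of each list beside 6.88% of all probe sets. With TSP1 the counts were 0, 0, 1 and 1, or at most 4.0% of a list beside 4.4% of all probe sets. Between the proteins they were 1, 1, 2 and 1, or 2.56% to 7.14% of a list beside 4.51%.

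**Figure D4:**
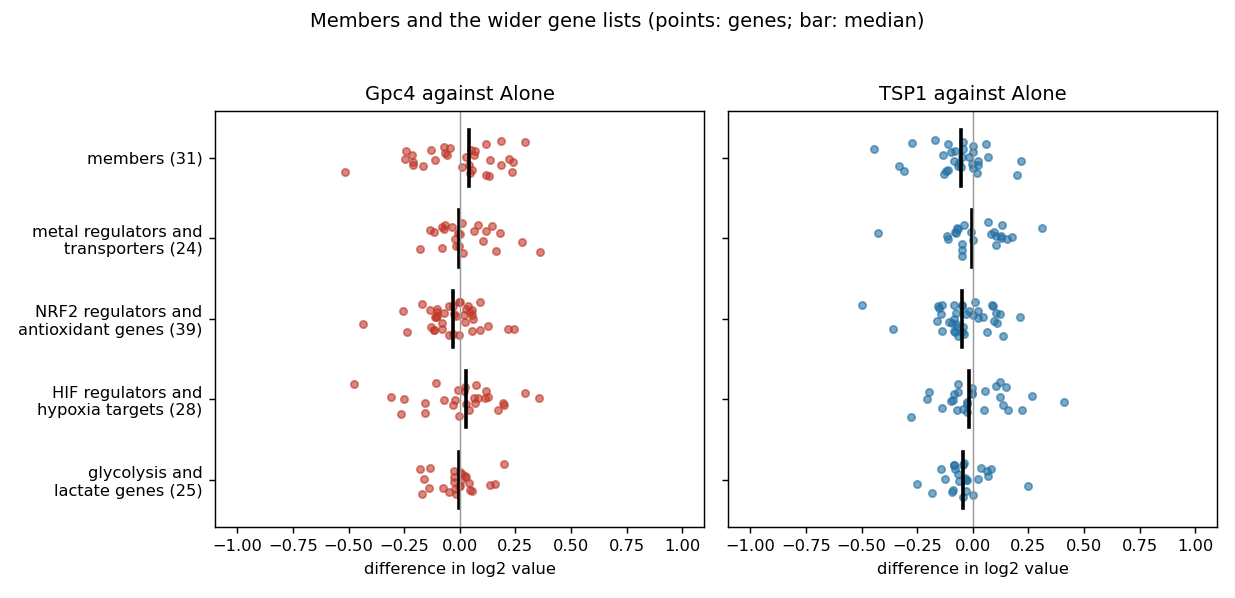
Difference in log2 value with Gpc4 (left) and TSP1 (right) against Alone for the measured members and 4 wider lists, 1 point a gene and a bar at each list's median; the number of measured genes is given beside each name. All medians lie between -0.055 and 0.04.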

How the data were processed

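RNA of RGCs in 3 conditions, each from 2 cultures, was hybridised to 6 arrays. The values the authors deposited were log2 signals from RMA (background correction, normalization between arrays and summary over probes) in Affymetrix Expression Console, whose version is not given in the sources used here, rounded to 2 decimals. RMA draws dim probe sets together, so differences of dim members may be understated. Probe sets were named from the platform annotation: 20826 had 1 symbol, 436 several and 9780 none, and for each gene the named probe set with the highest mean over the 6 arrays was used. All measured members were named, together with 10 regulators and any listed gene past the threshold.

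All 31042 probe sets entered a moderated linear model (lmFit, then eBayes, of limma 3.58.1, run under R 4.3.3) that had a mean for each group and 3 residual degrees of freedom and was two-sided, with Benjamini-Hochberg adjustment and a threshold of 0.05. Every p and adjusted p given comes from limma unless another test is named. The methods name no test across genes, and the fit was tested on simulated data. Samples were grouped by the labels. The replicate numbers were read as the 2 cultures the methods state: once group means were taken off, arrays that share a number had correlations of 0.29, 0.35 and 0.37 over the probe sets. With 2 arrays a group, p-values of the main fit measure the spread between these cultures, moderated over all probe sets. Where the culture number is in the model, they rest on how far the culture difference varies between the groups. Precision is limited by having so few arrays. The comparison of cultures used group plus replicate number, with 2 residual degrees of freedom. Motifs were counted in Python 3.11.15. The alternatives were other normalizations, a filter on dim probe sets, trended variance, the compared groups alone, a mean over probe sets, a threshold of 0.10, the replicate block, the methods' test on single genes and leaving out each array. The members and lists were chosen with earlier results of these data known.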

Additional observations from a re-analysis of the deposited data

How the results depend on the processing

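No member was called between conditions under quantile normalization, median centring, trended variance, a filter that kept probe sets with a mean log2 value of 6 or more, the compared groups alone, a mean over probe sets, a threshold of 0.10, or with any 1 array left out. The replicate block also called 0 members and 0 genes of the 4 wider lists in these comparisons. It raised the calls over all probe sets from 26 to 64 with Gpc4, from 0 to 4 with TSP1 and from 19 to 80 between the proteins, and the marker genes it called are given with the markers. The methods' t-test without adjustment counted 1 member with Gpc4 (Ddit4; 3.23% beside 5.57% of all probe sets), 1 with TSP1 (Ddit4; 3.23% beside 4.19%) and 3 between the proteins (Slc30a1, P4ha2 and Pdk1; 9.68% beside 4.7%), and after Benjamini-Hochberg adjustment it counted 0. Between the cultures, trended variance called 1 member, Nqo1 (adjusted p = 0.04 by limma), whose adjusted p ran from 0.04 to 0.73 over the alternatives, and the cause was not tested.

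The median difference over the members, 0.04 for Gpc4 against Alone, was 0.01 with a mean over probe sets and ran from -0.015 to 0.055 with 1 array left out, so its sign rests on single arrays (-0.015 without Gpc4 replicate 2). Between the proteins it was 0.025 with median centring, 0.075 with a mean over probe sets and 0.01 to 0.07 with 1 array left out. Between the cultures it ran from 0.0 to 0.04 with 1 array left out. Of 1530 values of single members under the alternatives, 86 had the opposite sign to the one reported, none of them called in either fit. Arrays give no depth, and for the members below the array median the signal over background limits what can be seen.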
